A study of Mus musculus with 9 samples.

Results

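Cholesterol and fatty acid synthesis is described here through 31 mouse genes, all of which were found by symbol among the 17730 genes of the deposited table and all of which passed the filter on low values. They were listed by known role, with earlier results of these data known: 17 enzymes of the sterol branch, 8 enzymes of the fatty acid branch, and 6 regulators and carriers of the sterol response. RNA was measured in wild-type primary astrocytes taken from the brain of newborn (P0) C57BL/6 mice and given medium conditioned by microglia (MCM). The group LPS-MCM (3 libraries) received medium of microglia stimulated with lipopolysaccharide (LPS), a molecule of the bacterial outer membrane, and the group Hemin-MCM (3 libraries) received medium of microglia stimulated with hemin, a breakdown product of hemoglobin. Neither doses nor exposure times are stated in the labels. Astrocytes given medium of resting microglia were not analysed here, so each difference is LPS-MCM relative to Hemin-MCM, and which of the groups departs from the resting state is unknown. The labels name no separate cultures or animals for the libraries of a group, so a p-value reflects only the spread of these libraries, which may be technical.

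Sterol synthesis starts from acetyl-CoA, runs through mevalonate and squalene to lanosterol, and ends with a series of steps that turn lanosterol into cholesterol. Its genes are driven by the transcription factor SREBP2 (gene Srebf2), which is held in the endoplasmic reticulum by the INSIG proteins while sterols are plentiful, and is escorted to the Golgi for cleavage by SCAP when they are not. The related factor SREBP1 (gene Srebf1) acts more on fatty acid genes, and its own transcription responds to the oxysterol receptor LXR. In the adult brain cholesterol is made locally, and astrocytes are a main source of the sterol and lipoprotein supplied to neurons.

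Levels are FPKM, the fragments mapped to a gene per kilobase of transcript, scaled to the library's total, as the authors deposited them. The libraries summed to between 348383 and 359093 FPKM, and the steps between low values put their depth at an estimated 35000000 to 38500000 fragments each. Across genes, Pearson's r between libraries was 0.994 to 0.997 within a group and 0.981 to 0.985 between groups (log2(FPKM + 1)). Levels of the 10 astrocyte markers ran from S100b, with group means of 1.73 (LPS-MCM) and 1.77 FPKM (Hemin-MCM), to Gfap, with 456.4 and 676.2 FPKM. The cultures also held RNA of other cell types: the summed level of 14 microglia markers was 352 to 404 FPKM in LPS-MCM, against 712 to 736 in Hemin-MCM, and 12 of the 14 were lower in LPS-MCM. The sum of 10 astrocyte markers was 1288 to 1330 against 1596 to 1685 FPKM (6 lower, 1 higher), and that of 8 ependymal markers 180 to 193 against 261 to 269 (7 of 7 tested lower). Markers of the oligodendrocyte lineage summed to 104 to 112 against 129 to 137 FPKM (2 of 7 tested lower). The largest parts were Olig1 (43.7 and 51.3) and Cnp (34.5 and 48.4), both called lower, and Olig2 (14.75 and 15.18), which did not pass. The myelin genes Mog (0.0742 and 0.0557) and Mobp (0.0501 and 0.0411) were near 0. Neuronal markers summed to 48.5 to 52.7 against 58.1 to 62.6 FPKM (1 higher and 1 lower of 3 tested). Most of this sum came from Stmn2 (40.55 and 48.79), with Tubb3 at 7.59 and 8.89 and Gad1 at 2.18 and 1.40. The remaining neuronal markers, such as Rbfox3 (0.0197 and 0.00848) and Snap25 (0.2995 and 0.298), averaged under 1 FPKM. Fibroblast and pericyte markers summed to 27.96 to 32.4 against 23.7 to 36.9 (2 of 5 tested higher, Dcn and Lum). Col1a1 and Col1a2 did not pass, although every LPS-MCM library lay below every Hemin-MCM library. The second Hemin-MCM library stood out, at 8.86 (Col1a1) and 10.1 FPKM (Col1a2). The other Hemin-MCM libraries were at 3.39 and 3.29 for Col1a1 and at 4.38 and 4.36 for Col1a2. Endothelial markers summed to 0.767 to 1.32 against 1.12 to 1.47 (none tested). In bulk RNA, fewer cells of a type and less RNA per cell cannot be told apart. The part of these markers' differences in the results below was not tested.

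Promoter sequences are shown first, as a description. SREBP factors bind promoters together with the factors NF-Y and Sp1. The search was made with the direction of the sterol genes known, and any part of these sites in the differences was not tested. RefSeq windows on GRCm38.p6 (250 bases before to 50 bases after each annotated start) were at hand for 24 of the 31 genes. They were searched on both strands for TCACNCCA, the core of the sterol regulatory element that SREBP binds, for CCAAT, which NF-Y binds, and for GGGCGG, the GC box of Sp1. The stretches printed are the 190 bases before the start, 5′ to 3′ on the strand of the gene, with matches to the sterol element core and to CCAAT in capitals. Hmgcs1 (chr13:119690161-119690350, plus strand), Srebf2 (chr15:82147079-82147268, plus) and Msmo1 (chr8:64733579-64733768, minus) were the 3 genes with a match to the sterol element core. Nsdhl (chrX:72918331-72918520, plus) had the largest difference of the sterol branch. Fads2 (chr19:10101504-10101693, minus) and Elovl6 (chr3:129532196-129532385, plus) passed the test in opposite directions in the fatty acid branch and have no capitals. For Hmgcs1 and Nsdhl, unlike the other genes printed, the bases after the start did not match the first part of a GENCODE vM21 transcript.
Hmgcs1: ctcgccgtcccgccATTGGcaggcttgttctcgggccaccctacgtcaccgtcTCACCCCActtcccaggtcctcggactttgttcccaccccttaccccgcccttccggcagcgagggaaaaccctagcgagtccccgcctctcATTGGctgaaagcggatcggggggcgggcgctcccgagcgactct
Srebf2: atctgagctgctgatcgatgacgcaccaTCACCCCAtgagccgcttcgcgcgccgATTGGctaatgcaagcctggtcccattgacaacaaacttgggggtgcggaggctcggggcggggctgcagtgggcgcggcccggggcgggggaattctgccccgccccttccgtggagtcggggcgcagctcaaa
Msmo1: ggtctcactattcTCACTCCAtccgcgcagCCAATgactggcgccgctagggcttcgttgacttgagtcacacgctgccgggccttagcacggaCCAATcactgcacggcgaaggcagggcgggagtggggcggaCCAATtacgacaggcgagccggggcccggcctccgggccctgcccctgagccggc
Nsdhl: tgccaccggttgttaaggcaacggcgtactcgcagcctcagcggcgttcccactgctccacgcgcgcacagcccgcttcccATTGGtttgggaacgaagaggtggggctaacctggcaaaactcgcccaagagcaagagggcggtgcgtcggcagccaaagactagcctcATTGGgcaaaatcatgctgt
Fads2: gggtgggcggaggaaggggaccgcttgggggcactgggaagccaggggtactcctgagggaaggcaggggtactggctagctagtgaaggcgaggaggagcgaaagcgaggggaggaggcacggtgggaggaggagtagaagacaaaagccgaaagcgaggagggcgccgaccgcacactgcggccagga
Elovl6: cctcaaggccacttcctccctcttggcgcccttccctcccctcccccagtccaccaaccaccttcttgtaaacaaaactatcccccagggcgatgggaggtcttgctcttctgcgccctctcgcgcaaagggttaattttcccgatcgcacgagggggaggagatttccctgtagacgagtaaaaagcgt

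At least 1 CCAAT was found in the window of 13 of 14 sterol genes, the exception being Acat2, and in 2 of 5 fatty acid genes, Fasn and Acly. Over all 9415 tested genes with a window the share was 43.3%. The GC box was in 13 of 14 sterol genes and 2 of 5 fatty acid genes, against 69.9% of tested genes with a window. TCACNCCA was in 2 of 14 sterol genes and 0 of 5 fatty acid genes, against 4.43%. A match is a description of the letters and not evidence of binding, and a window without one says nothing of sites outside it. Among the regulators, 4 of 5 genes with a window had a CCAAT.

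In the sterol branch 6 of 17 genes were higher in LPS-MCM and none was lower, and all 17 differences were positive. The median difference was 0.19 on the log2(FPKM + 1) scale, against -0.04 over all 11688 genes tested. The fitted differences were small, from 0.03 (Ebp) to 0.37 (Nsdhl), or 1.02-fold to 1.29-fold. The test is limma on all genes with Benjamini-Hochberg adjustment and a threshold of 0.05, and it called 20.5% of all tested genes, 6.72% higher and 13.8% lower. Of the 2400 called genes 32.8% were higher, a share that was 49.9% under median-of-ratios scaling and 44.9% under quantile normalization. All LPS-MCM libraries lay above all Hemin-MCM libraries in 12 of the 17 sterol genes, where 12.8% of all tested genes had that order and 24.7% the opposite one. The number of sterol genes called was 12 under median-of-ratios scaling and 10 under quantile normalization. Leaving out single libraries lowered it to 3 without the first LPS-MCM library, 2 without the second Hemin-MCM library and 3 without the third Hemin-MCM library.

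**Figure D1:**
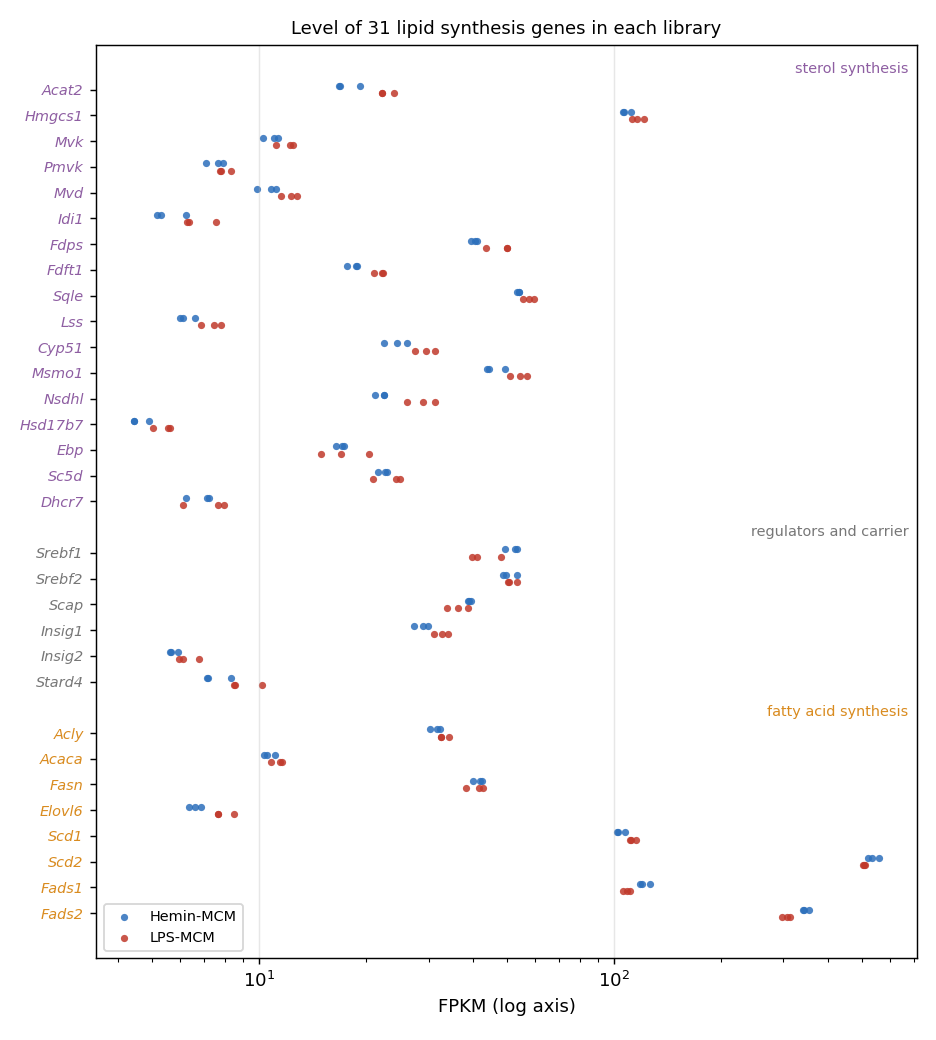
Level of each of the 31 genes in FPKM on a log axis, with 1 point per library (red LPS-MCM, blue Hemin-MCM, 3 libraries each) and genes coloured by branch in pathway order. Scd2 sits near 522 FPKM and Hsd17b7 near 4.99, and the red points lie to the right of the blue ones in 12 of the 17 sterol genes.

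The levels of the sterol enzymes spanned a wide range on the FPKM scale, which is per length. Hmgcs1 was the most abundant, with a mean of 112.5 FPKM over the 6 libraries, followed by Sqle (55.6) and Msmo1 (49.8), while Idi1 (6.13) and Hsd17b7 (4.99) were at the low end. All 31 genes together spanned a factor of 105, up to Scd2 at 521.6 FPKM.

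The mevalonate steps convert acetyl-CoA to farnesyl diphosphate. Acat2, the cytosolic thiolase that joins acetyl-CoA units in the first step, had levels of 22.2, 23.9 and 22.1 FPKM in LPS-MCM, against 19.3, 16.9 and 16.8 in Hemin-MCM. The groups did not overlap, and the log2 difference was 0.35 ± 0.06 (SE; limma adjusted p = 0.00361). Mouse has a neighbouring related copy, Acat3, whose reads the counting could divide with Acat2, so the single values of both are uncertain. Acat3 itself was at 21.5 ± 1.51 FPKM in LPS-MCM, against 13.8 ± 1.06 in Hemin-MCM (SD, n = 3 each) and was also higher (0.61 ± 0.07, limma adjusted p = 0.000195). Fdps, the farnesyl diphosphate synthase that ends this segment, was at 49.9, 49.98 and 43.5 FPKM in LPS-MCM, against 40.6, 39.6 and 40.95 in Hemin-MCM. The third LPS-MCM library was the closest to the Hemin-MCM libraries, and the difference was 0.23 ± 0.06 (limma adjusted p = 0.021). The call of Fdps was lost without the first (adjusted p = 0.0802) or the second LPS-MCM library (0.0669), and without the first (0.0565), the second (0.0778) or the third Hemin-MCM library (0.0594).

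The other 5 genes of this segment did not pass. Hmgcs1, which makes HMG-CoA, was at 116.8 ± 4.59 and 108.2 ± 3.22 FPKM, with a difference of 0.11 and a 95% interval from -0.0014 to 0.22. The decarboxylase gene Mvd (0.19, interval 0.04 to 0.33; limma adjusted p = 0.0681) and the isomerase gene Idi1 (0.24, 0.04 to 0.43; limma adjusted p = 0.0906) had intervals above 0 before adjustment. The kinase genes Mvk (0.12, -0.02 to 0.26) and Pmvk (0.07, -0.07 to 0.21) had overlapping libraries. Under median-of-ratios scaling Hmgcs1, Mvd and Idi1 were called higher (limma adjusted p = 0.0441, 0.0223 and 0.0395).

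Squalene is made from farnesyl diphosphate by Fdft1, oxidised by Sqle, an oxygen-dependent control point of the pathway, and closed to lanosterol by Lss. Fdft1 was at 22.3, 22.2 and 21.0 FPKM in LPS-MCM, against 18.8, 17.7 and 18.8 in Hemin-MCM, with no overlap. Its difference was 0.23 ± 0.05 (limma adjusted p = 0.0104), which became 0.0546 without the second Hemin-MCM library. On the annotation the gene shares 774 bases with the abundant lysosomal protease gene Ctsb (893.3 ± 60.5 and 983.0 ± 42.1 FPKM), so that reads of Ctsb could be counted for it. Ctsb leaned the other way (-0.14 ± 0.07, limma adjusted p = 0.184). Sqle (57.4 ± 2.09 and 53.7 ± 0.366 FPKM; 0.10, -0.01 to 0.20) and Lss (7.37 ± 0.458 and 6.22 ± 0.312 FPKM; 0.21, 0.06 to 0.36) did not pass, although all LPS-MCM libraries lay higher in both. Lss had a limma adjusted p of 0.0513 and passed in 4 of 13 alternative fits.

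After lanosterol, Cyp51 removes the first methyl group, Msmo1 and Nsdhl with Hsd17b7 remove the remaining ones, and Ebp shifts, Sc5d adds and Dhcr7 reduces a ring double bond. Cyp51 was at 29.6, 27.5 and 31.4 FPKM in LPS-MCM, against 26.0, 24.4 and 22.5 in Hemin-MCM. Msmo1 was at 54.3, 50.8 and 56.7 FPKM in LPS-MCM, against 49.1, 43.8 and 44.3 in Hemin-MCM. In both genes the LPS-MCM libraries lay above the others, though the gap was narrow, with differences of 0.27 ± 0.07 (Cyp51, limma adjusted p = 0.019) and 0.23 ± 0.06 (Msmo1, limma adjusted p = 0.0226). With no filter on low values neither was called (limma adjusted p = 0.051 and 0.0519), nor was either without the first LPS-MCM library (0.0545 and 0.0668). They were also lost without the second (0.0546 and 0.0933) or the third Hemin-MCM library (0.0874 and 0.0949).

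Nsdhl, an X-linked sterol dehydrogenase, had the largest difference of all 31 genes. It was at 26.2, 28.9 and 31.4 FPKM in LPS-MCM, against 22.5, 22.4 and 21.2 in Hemin-MCM, well apart, with a difference of 0.37 ± 0.07 (limma adjusted p = 0.00333). Nsdhl and Acat2 were called in each of the 13 alternative fits. Of the rest, Hsd17b7 had separate groups but did not pass (5.39 ± 0.323 and 4.59 ± 0.255 FPKM; 0.19, 0.04 to 0.35; limma adjusted p = 0.0805). The last enzymes of the route overlapped between groups: Ebp (0.03, -0.18 to 0.24), Sc5d (0.06, -0.10 to 0.21) and Dhcr7 (0.06, -0.15 to 0.27). Ebp was uneven within LPS-MCM, at 20.4, 17.03 and 15.0 FPKM.

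**Figure D2:**
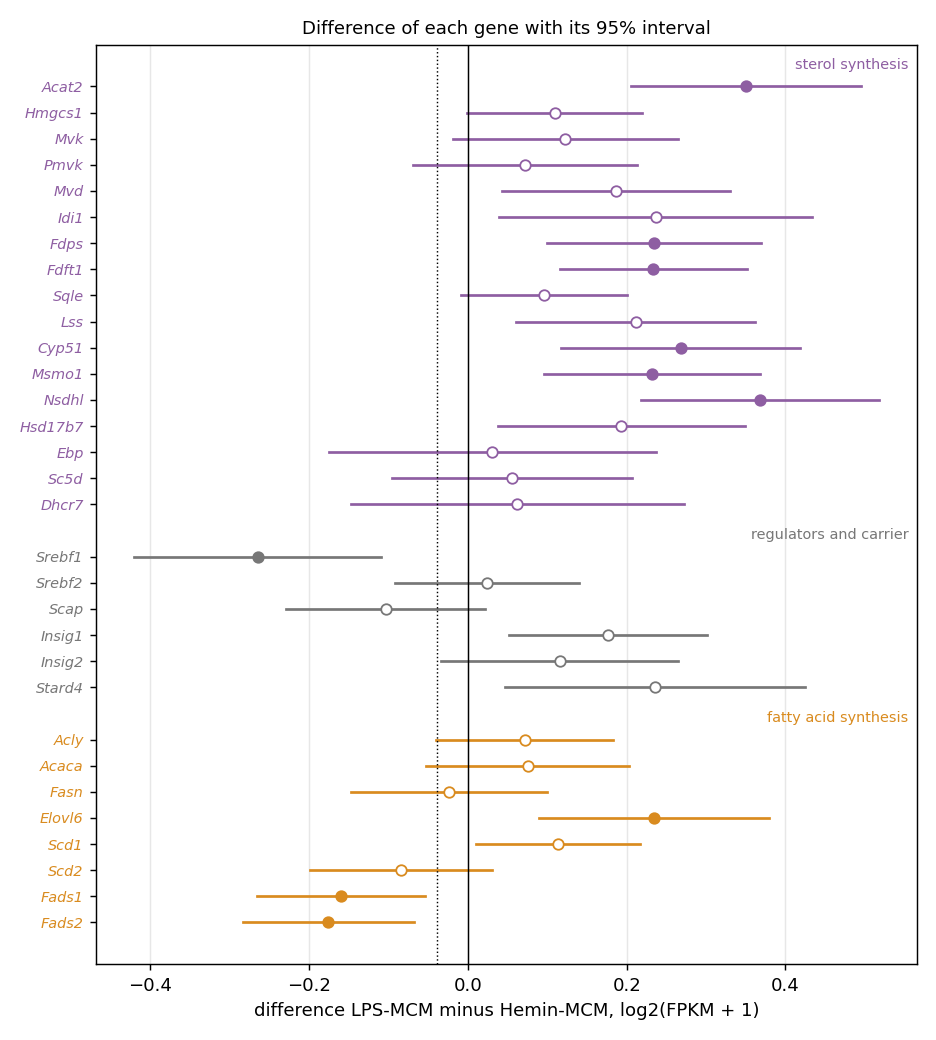
Difference of each gene between LPS-MCM and Hemin-MCM on the log2(FPKM + 1) scale with its 95% interval from limma, where filled points passed the test, the solid line marks 0 and the dotted line the median of all genes tested (-0.04). All 17 sterol genes sit to the right of 0, up to Nsdhl at 0.37, while Srebf1, Fads1 and Fads2 are the filled points to the left.

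Among the 6 regulators and carriers, 1 was lower, none was higher and 5 did not pass, with a median difference of 0.07. Over all tested genes 13.8% were lower and 6.72% higher. All LPS-MCM libraries lay above the others in 3 of the 6 and below in 1, against 12.8% and 24.7% of all tested genes. Srebf1 was at 41.1, 47.9 and 39.9 FPKM in LPS-MCM, against 49.4, 53.2 and 52.5 in Hemin-MCM. The groups did not overlap, although the second LPS-MCM library came close, and the difference was -0.27 ± 0.07 (limma adjusted p = 0.023). The call was lost under median-of-ratios scaling (limma adjusted p = 0.07) and without the filter (0.0644). It was also lost without the first (0.0806) or the third LPS-MCM library (0.0551) and without the second (0.0838) or the third Hemin-MCM library (0.0843). The gene-level values do not separate its SREBP1a and SREBP1c transcripts.

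Srebf2 was near equal in both groups, at 51.4 ± 1.61 and 50.5 ± 2.44 FPKM, with a difference of 0.02 and an interval from -0.09 to 0.14. The ratio of Srebf1 to Srebf2 within a library, which does not depend on the scaling of libraries, was 0.81, 0.901 and 0.795 in LPS-MCM, against 1.01, 0.998 and 1.06 in Hemin-MCM. Srebf1 was thus the less abundant of the pair in every LPS-MCM library and about equal to Srebf2 in the Hemin-MCM libraries. Scap, the escort protein, did not pass (36.4 ± 2.47 and 39.1 ± 0.354 FPKM; -0.10, -0.23 to 0.02).

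Insig1, itself a target of SREBP, was at 34.1, 32.8 and 31.1 FPKM in LPS-MCM, against 29.99, 29.0 and 27.3 in Hemin-MCM. Its groups did not overlap and its difference of 0.18 ± 0.06 lay just outside the threshold (limma adjusted p = 0.0503). It passed in 3 of 13 alternative fits, namely median-of-ratios scaling (0.0213), the replicate block (0.0435) and without the third LPS-MCM library (0.0237). Insig2 (0.12, -0.03 to 0.27) did not pass, and the ratio of Insig1 to Insig2 overlapped between groups, from 4.83 to 5.6 in LPS-MCM, against 4.63 to 5.33 in Hemin-MCM. Stard4, a small carrier that moves sterols between membranes, was at 9.07 ± 0.965 and 7.55 ± 0.699 FPKM (0.24, 0.05 to 0.42; limma adjusted p = 0.0802), and the first LPS-MCM library at 10.2 FPKM was above the rest.

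In the fatty acid branch the members did not share a direction: 1 of 8 was higher, 2 were lower and 5 did not pass, with 4 positive and 4 negative differences and a median of 0.02. Over all tested genes 6.72% were higher and 13.8% lower. All LPS-MCM libraries lay above the others in 3 of the 8 genes and below in 3, against 12.8% and 24.7% of all tested genes. The higher gene of the branch was Elovl6, the elongase that extends palmitate to stearate. It was at 7.67, 7.63 and 8.49 FPKM in LPS-MCM, against 6.58, 6.84 and 6.34 in Hemin-MCM, with no overlap and a difference of 0.23 ± 0.06 (limma adjusted p = 0.0281). The call was lost in 7 of the 13 alternative fits. Among them were the fits without the first (limma adjusted p = 0.0505) or the third LPS-MCM library (0.067) and without the first (0.0728), the second (0.0529) or the third Hemin-MCM library (0.113). The others were the fit without the filter (0.0518) and the replicate block (0.0521).

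The lower genes were Fads2 and Fads1, the delta-6 and delta-5 desaturases that make long polyunsaturated fatty acids and that lie in 1 gene cluster on chromosome 19. Fads2 was at 306.9, 312.7 and 298.0 FPKM in LPS-MCM, against 353.9, 339.9 and 343.0 in Hemin-MCM. Fads1 was at 110.8, 109.0 and 106.1 FPKM in LPS-MCM, against 126.1, 119.8 and 118.6 in Hemin-MCM. In both genes every LPS-MCM library was below every Hemin-MCM library, with differences of -0.18 ± 0.05 (Fads2, limma adjusted p = 0.0275) and -0.16 ± 0.05 (Fads1, limma adjusted p = 0.0378). Their ratio was nearly the same in all libraries, from 2.77 to 2.87 in LPS-MCM, against 2.81 to 2.89 in Hemin-MCM. The third gene of the cluster, Fads3, was at 25.4 ± 1.85 and 25.3 ± 1.09 FPKM and did not pass (0.00 ± 0.06). Both desaturase calls were lost under median-of-ratios scaling (limma adjusted p = 0.149 for Fads2 and 0.195 for Fads1). They were also lost without the first LPS-MCM library (0.0738 and 0.0704) and without the first (0.103 and 0.136), the second (0.0762 and 0.0934) or the third Hemin-MCM library (0.0904 and 0.0833). Fads1 alone also lost its call without the second LPS-MCM library (0.0751), without a mean-variance trend (0.0739) and under the replicate block (0.0515).

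The core enzymes of palmitate synthesis did not pass. The ATP citrate lyase gene Acly (33.1 ± 1.01 and 31.5 ± 1.06 FPKM; 0.07, -0.04 to 0.18) and the acetyl-CoA carboxylase gene Acaca (11.3 ± 0.408 and 10.6 ± 0.399 FPKM; 0.08, -0.05 to 0.20) had intervals across 0. So had the fatty acid synthase gene Fasn (40.9 ± 2.38 and 41.5 ± 1.23 FPKM; -0.02, -0.15 to 0.10). For these genes the intervals end below the difference fitted for Nsdhl, which is the largest of the 31. The interval of Acaca includes the sterol median of 0.19, while those of Acly and Fasn end below it.

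The stearoyl-CoA desaturases, which place the first double bond in saturated chains, are encoded by Scd2, the main brain form, and Scd1. Scd2 was at 507.5, 502.6 and 508.7 FPKM in LPS-MCM, against 558.5, 531.8 and 520.7 in Hemin-MCM, and Scd1 at 111.4, 110.6 and 115.1 and at 107.1, 101.6 and 102.8. Neither passed (Scd2 -0.08, limma adjusted p = 0.295, and Scd1 0.11, limma adjusted p = 0.116), yet they leaned in opposite directions with no overlap between groups in either. The ratio of Scd2 to Scd1 was 4.42 to 4.55 in LPS-MCM, against 5.07 to 5.23 in Hemin-MCM. The copies are related in sequence, so the counting could divide reads between them, and Scd3 and Scd4 were under 0.3 FPKM in all libraries.

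The branches were compared by the mean of log2(FPKM + 1) over their genes in each library, as a description with no test. The sterol branch was at 4.36, 4.35 and 4.37 in LPS-MCM, against 4.20, 4.18 and 4.17 in Hemin-MCM. The fatty acid branch was at 6.00, 6.02 and 6.01 in LPS-MCM, against 6.01, 6.02 and 5.99 in Hemin-MCM. The sterol level was thus higher by 0.18 while that of the fatty acid branch differed by 0.0064, and the distance between the branches, which depends little on a common factor per library, was -1.65 ± 0.02 in LPS-MCM, against -1.83 ± 0.01 in Hemin-MCM (SD, n = 3 each). Summed without the logarithm, the sterol genes reached 478.4 ± 8.80 and 422.0 ± 9.36 FPKM, and the fatty acid genes, dominated by Scd2 and Fads2, 1126 ± 6.48 and 1198 ± 30.6 FPKM.

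**Figure D3:**
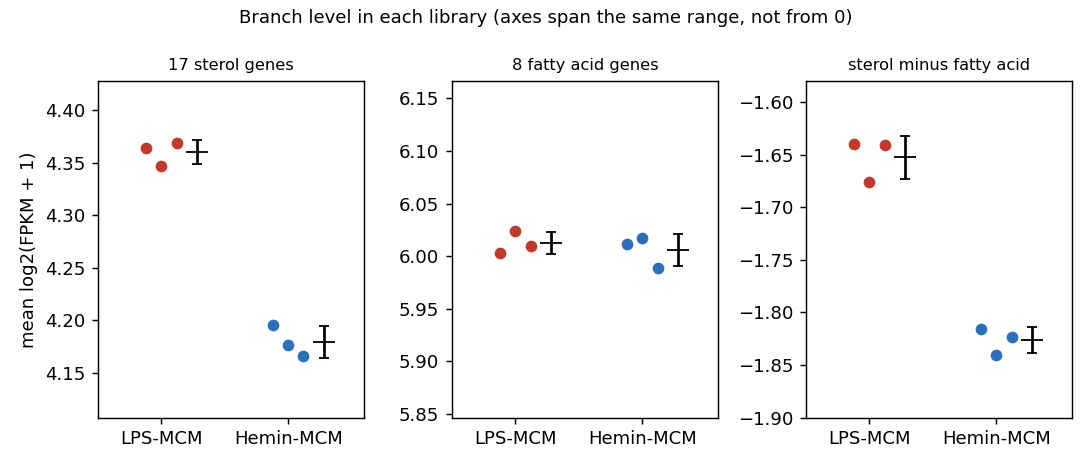
Mean log2(FPKM + 1) over the 17 sterol genes, over the 8 fatty acid genes, and the difference of the 2 means, with 1 point per library (red LPS-MCM, blue Hemin-MCM) and the mean ± SD beside the points; the vertical axes span the same range and do not start at 0. The sterol means are 4.35 to 4.37 in LPS-MCM, against 4.17 to 4.20 in Hemin-MCM, while the fatty acid means overlap near 6.01.

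Further genes of lipid metabolism were read from 6 lists. Over all tested genes 6.72% were called higher and 13.8% lower, and the counts of each list stand beside these shares. Of 10 tested genes for other sterol enzymes and electron donors, 2 were higher and 1 was lower. The sterol reductase gene Lbr (9.24 ± 0.866 and 7.55 ± 0.200 FPKM; 0.26 ± 0.07, limma adjusted p = 0.0276) passed in 8 of 13 alternative fits, and the cytochrome b5 gene Cyb5b (117.1 ± 4.50 and 102.8 ± 2.58 FPKM; 0.19 ± 0.05, limma adjusted p = 0.0228) in 9. Both lost the call without the first LPS-MCM library (0.0972 and 0.0786) or without the first (0.0773 and 0.0623), the second (0.0578 and 0.103) or the third Hemin-MCM library (0.0968 and 0.0576), and Lbr also with no filter (0.0617). The related Cyb5a, which donates electrons to desaturases and sterol oxidases, was lower (72.3 ± 1.395 and 92.5 ± 5.90 FPKM; -0.35 ± 0.06, limma adjusted p = 0.0014). Of 18 genes for SREBP processing and sterol sensing none was higher and 2 were lower, Erlin2 (-0.19 ± 0.05, limma adjusted p = 0.0154) and Pgrmc1 (-0.18 ± 0.05, limma adjusted p = 0.0281), with a median of 0.00. Erlin2 belongs to a membrane complex that helps degrade sterol-regulated proteins. Both lost the call under median-of-ratios scaling (limma adjusted p = 0.0859 and 0.125) and without the second Hemin-MCM library (0.0747 and 0.113). Pgrmc1 also lost it without the second LPS-MCM library (0.0857) or the third Hemin-MCM library (0.111), without the mean-variance trend (0.0575) and under the replicate block (0.0519).

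Oxysterol and LXR genes were divided. Of 12 tested, 2 were higher and 3 were lower. Cyp7b1, the hydroxylase that breaks down oxysterols, had the largest positive difference (0.67 ± 0.07, limma adjusted p = 8.67e-05), at 27.0, 23.9 and 26.7 FPKM in LPS-MCM, against 15.7, 17.1 and 15.0 in Hemin-MCM. Ch25h, which makes 25-hydroxycholesterol, an oxysterol that holds SREBP back, was also higher (105.8 ± 13.5 and 79.8 ± 2.14 FPKM; 0.40 ± 0.08, limma adjusted p = 0.00527). The sterol exporter gene Abcg1, an LXR target, was lower (2.74 ± 0.449 and 4.88 ± 0.641 FPKM; -0.65 ± 0.11, limma adjusted p = 0.00174), and so was the cholesteryl ester hydrolase gene Nceh1 (-0.27 ± 0.06, limma adjusted p = 0.00743). Of the same list, Abca1 (0.05 ± 0.05, limma adjusted p = 0.538) and Abcg4 (-0.09 ± 0.10, limma adjusted p = 0.563) did not pass. Neither did Mylip (-0.05 ± 0.08, limma adjusted p = 0.705) or Lpcat3 (0.00 ± 0.04, limma adjusted p = 0.989). The list's median was -0.06.

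Among 14 genes of sterol uptake and transport within cells, 2 were higher and 2 were lower. The lysosomal acid lipase gene Lipa, which frees cholesterol from esters, was at 11.2 ± 1.01 and 20.3 ± 0.940 FPKM (-0.80 ± 0.07, limma adjusted p = 3.16e-05), and the lipoprotein receptor gene Lrp8 was lower too (-0.40 ± 0.07, limma adjusted p = 0.00364). Gramd1a, which carries sterol from the plasma membrane to the endoplasmic reticulum, was higher (20.7 ± 1.58 and 15.6 ± 0.538 FPKM; 0.38 ± 0.06, limma adjusted p = 0.00177), as was Npc2 (0.19 ± 0.05, limma adjusted p = 0.0271), which passed in 7 of 13 alternative fits. It lost its call without the first (adjusted p = 0.0761) or the second LPS-MCM library (0.0847), without the first (0.0912), the second (0.071) or the third Hemin-MCM library (0.0888), and in the fit with no mean-variance trend (0.0551). The 14 microglia markers had a median difference of -1.13, and their part in these values was not tested.

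Of 23 tested genes of further fatty acid synthesis and activation, 6 were higher and 4 were lower, with a median of -0.02. The acyl-CoA synthetase genes Acsl5 (38.2 ± 0.366 and 29.3 ± 1.56 FPKM; 0.37 ± 0.05, limma adjusted p = 0.000658) and Acsl4 (13.6 ± 0.546 and 10.3 ± 0.177 FPKM; 0.37 ± 0.06, limma adjusted p = 0.000971) were higher. Another acyl-CoA synthetase gene, Acsbg1, was lower (42.8 ± 1.07 and 54.95 ± 2.54 FPKM; -0.35 ± 0.05, limma adjusted p = 0.000843). Elovl5, the elongase that works between the FADS2 and FADS1 steps, was lower together with both desaturase genes (45.0 ± 1.27 and 54.6 ± 1.403 FPKM; -0.27 ± 0.05, limma adjusted p = 0.00246).

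Among 18 tested genes of fatty acid oxidation and PPAR targets, 1 was higher and 4 were lower, with a median of -0.09. Angptl4, a lipase inhibitor, was higher (0.50 ± 0.06, limma adjusted p = 0.00017). The lower genes included Cpt1a, which admits fatty acids into mitochondria (26.6 ± 1.59 and 33.9 ± 0.380 FPKM; -0.34 ± 0.05, limma adjusted p = 0.0016), the thiolase gene Acaa2 (-0.64 ± 0.12, limma adjusted p = 0.00422) and the kinase gene Pdk4 (-0.52 ± 0.08, limma adjusted p = 0.000972). Compared with these lists, which reached from -0.80 to 0.67, the 31 synthesis genes stayed within -0.27 to 0.37.

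**Figure D4:**
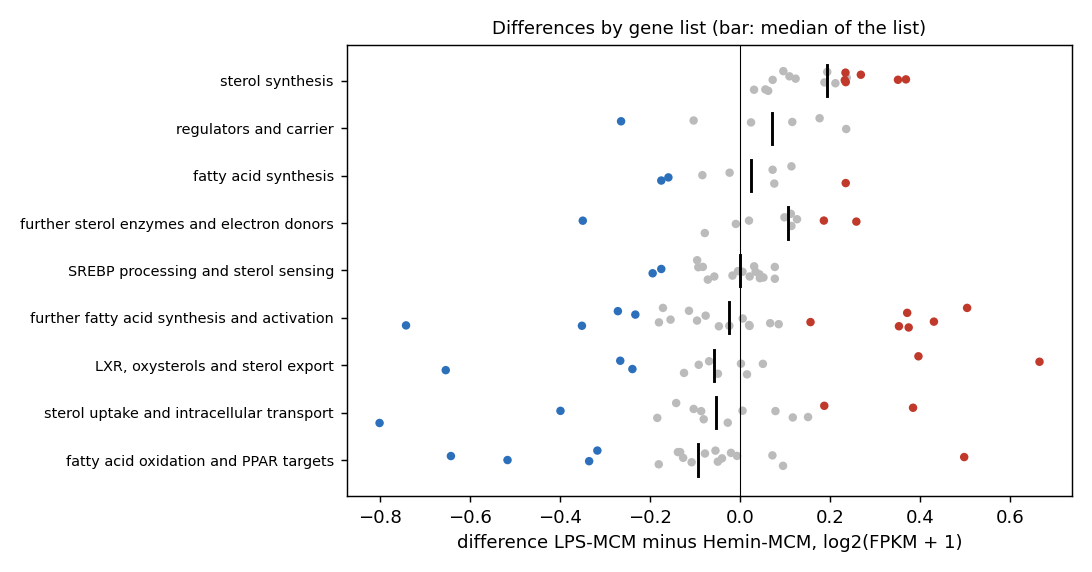
Difference of each tested gene (LPS-MCM minus Hemin-MCM, log2(FPKM + 1) scale) in the 3 groups of synthesis genes and 6 further lists, red for genes called higher, blue for genes called lower, grey for genes not called, with a bar at the median of each list; vertical scatter has no meaning. The sterol list has the highest median (0.19), with all its points to the right of 0, and the remaining lists hold points on both sides.

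The calls of the 31 genes were followed over 13 alternative fits. In the sterol branch all tested differences were positive in each of these fits except those without the first and without the second LPS-MCM library, where 16 of 17 were. Srebf1, Fads1 and Fads2 had negative differences in all of them. The calls were less stable than the signs: without the second Hemin-MCM library 2 members remained called, Acat2 and Nsdhl.

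**Figure D5:**
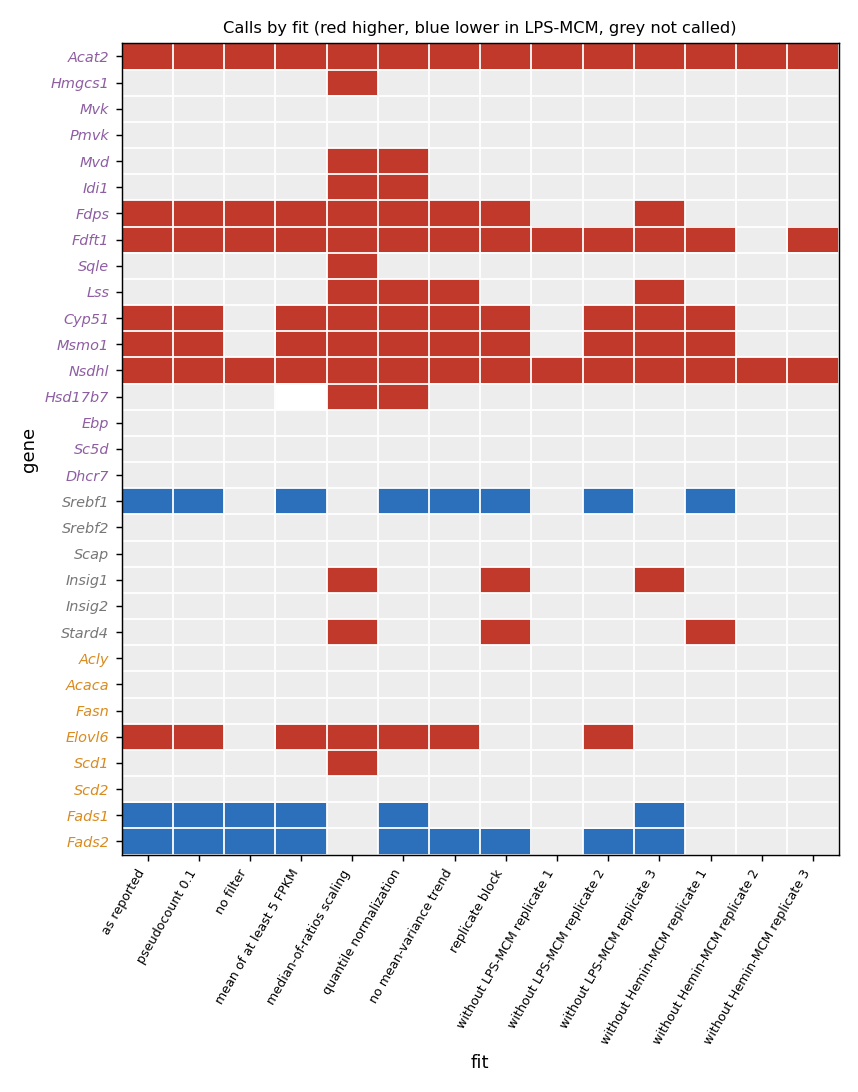
Calls for each of the 31 genes (vertical) in the fit as reported and in the 13 alternative fits (horizontal), red for higher and blue for lower in LPS-MCM, grey for not called and white for not tested. Acat2 and Nsdhl are red in every column, median-of-ratios scaling has the most red cells (16) and no blue one, and the column without the second Hemin-MCM library has 2 coloured cells.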

How the data were processed

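Stranded libraries of polyadenylated RNA were made from total RNA, per the labels' protocols. The authors deposited 1 table of FPKM values per gene and library; per the submitters' processing notes the genome build was mm10 and DESeq (no version) was among the tools, while the aligner, the counter and the gene annotation were not given in the sources used here. Of its 9 columns of values, 6 were matched to samples by treatment word and number in their names; 3 match no sample title and were not used, so medium of resting microglia was not analysed here.

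FPKM values were converted to log2(FPKM + 1), which understates changes of low genes. Of 17730 genes, those averaging 1 FPKM or more across the libraries used (11688) entered limma 3.58.1 (R 4.3.3; mean-variance trend, 1 mean per group, two-sided), with Benjamini-Hochberg adjustment over all of them. The fit was checked on simulated data. Errors are SE for differences and SD for levels; intervals are 95% from limma. Members and lists were chosen with earlier results of these data known. Genes outside the 31 are named as up to 4 called genes with the smallest adjusted p per list. Acat3, Ctsb, Fads3, Scd3 and Scd4 were added later as related or overlapping genes. Abca1, Abcg4, Mylip and Lpcat3 were added later as genes that did not pass in the list of Abcg1. Ratios between members were picked after their values were seen. Branch counts and medians carry no test of their own.

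Depth was estimated from low values: of 7155 values under 0.3 FPKM, 58.4% lay within 0.1 of a whole multiple of the gene's smallest value (20% by chance), and 334 genes with 1 transcript in GENCODE vM21 gave the scale for the estimate. No exact counts follow from this. Coordinates and promoters are from RefSeq on GRCm38.p6, the assembly of mm10.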

Additional observations from a re-analysis of the deposited data

How the results depend on the processing

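Members called higher, 7 as reported, numbered 4 without the low-value filter, 16 under median-of-ratios scaling and 11 under quantile normalization, and 2 to 8 when single libraries were left out. Members called lower, 3 as reported, numbered 0 under median-of-ratios scaling and 0 to 2 when single libraries were left out. Sterol genes called higher went from 6 to 12 and 10 under those 2 scalings and to between 2 and 7 without single libraries. Fatty acid genes called higher went from 1 to 0 without the filter and under the replicate block, to 2 under median-of-ratios scaling, and to between 0 and 1 without single libraries. The sterol median, 0.19 as reported, was 0.23 with a pseudocount of 0.1, 0.24 under both scalings and 0.17 to 0.20 without single libraries. The fatty acid median, 0.02 as reported, was 0.0795 under median-of-ratios scaling and -0.0052 to 0.042 without single libraries. The cause of these moves was not tested, beyond the smaller number of samples when a library is left out. Of 402 values of single members in alternative fits, 343 kept their side of the threshold and their sign where called, 40 lost a call and 19 gained one. Over all genes 2400 were called, and 1639 to 2415 without single libraries.

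Deviations from the group means had correlations of 0.08, 0.107 and -0.106 between same-numbered libraries of the groups. Between unlike-numbered libraries they ran from -0.212 to 0.126. With 3 libraries per group these values cannot settle whether the numbers pair the samples. The fit as reported used no pairing. With the replicate block 2330 genes, 8 members higher and 2 lower were called. Depth is an estimate, so counting error of the low genes could not be given.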
